A study of Mus musculus with 24 samples.

Results

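The genes described here encode the nuclear subunits of the mitochondrial respiratory chain and ATP synthase, with the assembly factors and paralogs that share their names. They were chosen by symbol alone: every gene whose name begins with Nduf, Uqcr, Atp5 or Cox4 to Cox8, or is Sdha, Sdhb, Sdhc or Sdhd. The array table names 86 such genes by a probe set with 1 gene symbol. Of these, 83 had a log2 signal over 5 in at least 4 of the 24 arrays and are described as members, among 14411 genes that passed the same filter. They comprise 31 subunits of complex I, 4 of complex II, 7 of complex III, 15 of complex IV and 16 of complex V. The others are 8 complex I assembly factors of the Ndufaf series, the paralog Ndufa4l2 and the supercomplex factor Cox7a2l. The pseudogene Atp5c1-ps and the testis isoforms Cox7b2 and Cox8c stayed below the filter, between 2.54 and 4.17 on every array. The dimmest members that passed were Atp5j2, over 5 on 8 arrays (4.65 to 5.43), Cox6a2 and Cox7c on 18 each, and Cox6b2 on 20.

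The RNA came from whole adrenal glands of adult mice of 7 months on a mixed sv129-C57Bl/6 background, 4 arrays in each of 6 groups. Both Prkar1a alleles were floxed in the knockout (KO) mice, which had Cre in the Cyp11b2 locus; it drives recombination in aldosterone-producing cells of the zona glomerulosa and their descendants. Prkar1a encodes a regulatory subunit that restrains protein kinase A, and the comparisons ask what its loss does to the gland in females, in intact males and in males gonadectomised for the last 2 months (GDX). Control (WT) females carried 1 floxed allele and Cre, and WT intact males carried both floxed alleles without Cre. The WT GDX males were mixed: array 1 had neither a floxed allele nor Cre, arrays 2 and 3 had Cre without a floxed allele, and array 4 had Cre with 1 floxed allele. All carried the mTmG reporter on both alleles, except the mouse of WT GDX array 2 with 1 copy. Control genotype thus differs between the sexes and within the WT GDX males, and it cannot be told apart from sex or gonadectomy in WT mice, from the KO change within a sex, or from differences between the KO changes. The labels call the arrays of a group biological replicates.

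Complex I (NADH dehydrogenase) and complex II (succinate dehydrogenase) pass electrons to ubiquinone, complex III passes them to cytochrome c, and complex IV (cytochrome c oxidase) reduces oxygen. The proton gradient this builds drives complex V, the ATP synthase. In the adrenal cortex mitochondria also hold the side-chain cleavage enzyme and the 11-beta hydroxylase, which draw on NADPH in the same matrix. Brown adipocytes and muscle use their own isoforms of some complex IV subunits: Cox8b and Cox7a1 there take the place of the general Cox8a and Cox7a2.

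Because Cox8b and Cox7a1 gave the widest changes of all members and their general counterparts had none called, the sequence around the starts of all 4 genes is shown from RefSeq (GRCm38.p6). Each run holds 220 bases before and 30 after the annotated start, 5′ to 3′ on the strand of the gene. For Cox7a2 that start lies inside the annotated span of the gene, chr9:79755241-79771422, and not at its outer end. Capitals mark matches, on either strand, to the ETS core CCGGAA, the TATA letters TATAAA, the E-box CAGCTG, the ERR letters AAGGTCA and the CRE part TGACGT.
Cox8b, chr7:140900417-140900666, minus strand: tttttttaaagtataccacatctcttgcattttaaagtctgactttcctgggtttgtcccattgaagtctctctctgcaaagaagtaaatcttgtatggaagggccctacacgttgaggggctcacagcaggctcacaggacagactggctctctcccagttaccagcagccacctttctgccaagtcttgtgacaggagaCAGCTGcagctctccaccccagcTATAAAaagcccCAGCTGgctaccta
Cox7a1, chr7:30183951-30184200, plus strand: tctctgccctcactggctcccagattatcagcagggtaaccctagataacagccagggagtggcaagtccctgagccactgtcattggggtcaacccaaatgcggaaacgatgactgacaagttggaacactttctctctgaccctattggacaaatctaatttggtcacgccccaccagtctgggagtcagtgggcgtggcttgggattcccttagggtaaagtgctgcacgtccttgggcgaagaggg
Cox8a, chr19:7217587-7217836, minus strand: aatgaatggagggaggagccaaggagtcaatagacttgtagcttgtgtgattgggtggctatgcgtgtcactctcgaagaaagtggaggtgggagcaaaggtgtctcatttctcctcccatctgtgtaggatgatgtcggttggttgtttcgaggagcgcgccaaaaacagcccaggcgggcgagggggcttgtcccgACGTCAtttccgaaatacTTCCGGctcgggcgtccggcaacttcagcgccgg
Cox7a2, chr9:79759824-79760073, minus strand: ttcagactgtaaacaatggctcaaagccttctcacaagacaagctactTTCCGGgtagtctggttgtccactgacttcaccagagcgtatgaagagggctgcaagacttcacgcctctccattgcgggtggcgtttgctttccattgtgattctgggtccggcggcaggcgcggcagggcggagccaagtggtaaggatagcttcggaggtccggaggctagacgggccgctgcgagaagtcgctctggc
Cox8b has TATA letters beginning 4 bases after the annotated start and 2 E-boxes, and neither it nor Cox7a1 holds an ETS core. Cox8a and Cox7a2 each hold 1 ETS core, and Cox8a the TGACGT letters as well. Over the 300-base RefSeq windows, 250 before and 50 after the start, 69 of the 83 members had an entry. The ETS core was present in 27 of these (39.1%), against 16.7% of the 27025 genes in the table, and the palindromic NRF1 motif in 7 (10.1%), against 1.07%. E-box letters were in 7.25% of the members against 18.3% of all genes, and TATA letters in 10.1% against 15.7%. The CRE letters TGACGTCA were in 3 members (4.35% against 2.03%), and TGACGT, which they contain, in 8 (11.6% against 8.37%). AAGGTCA was in 5 (7.25% against 5.38%), and the SP1 letters GGGCGG in 33 (47.8% against 38.2%). The 27025 genes were not filtered by signal on the arrays, as the members were, so the 2 sets differ in expression too. Such matches describe the letters of these windows and are not binding sites.

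All values are log2 signals, on which a difference of 1 is 2-fold, and a level is compared only with the level of the same probe set. Changes are limma contrasts ± standard error (SE) from 1 fit of all 24 arrays. Calls require a limma p under 0.05 after Benjamini-Hochberg adjustment across the 14411 genes. Prkar1a itself ran from 6.67 to 7.35 in KO females against 8.43 to 8.54 in WT females, and from 7.30 to 7.99 against 8.59 to 8.94 in GDX males. In intact males KO array 1 read 6.89 and KO arrays 2 to 4 read 8.08 to 8.47, against 8.72 to 8.91 in WT. There the change of Prkar1a, -0.92 ± 0.23, was not called (adjusted p = 0.16). One library stood apart for the members. WT GDX array 3 had the highest value of its group for 66 of the 83 members, where it was highest for 20.9% of all genes. Its mean over the members, each gene centred on its 24 arrays, was 0.34, and the other 23 arrays ran from -0.13 to 0.12. Medians of the members that involve WT GDX males are therefore given with and without it. Counts of members below 0 or without overlap include it.

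Across the 6 groups 26 members (31.3%) passed the overall F test, against 47.6% of all genes tested, 17 members without KO female array 2 and 30 without WT GDX array 3. The range of the 6 group means was 2.17 for Cox8b and 1.48 for Cox7a1, followed by 0.77 for Cox7b, 0.62 for Cox5a and 0.58 for Ndufa4l2. Every other member's group means lay within 0.51 of each other. Without WT GDX array 3 the range was 1.73 for Cox8b, 1.2 for Cox7a1, 0.65 for Cox7b, 0.50 for Cox5a and 0.58 for Ndufa4l2, and Cox7c came next at 0.52.

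**Figure D1:**
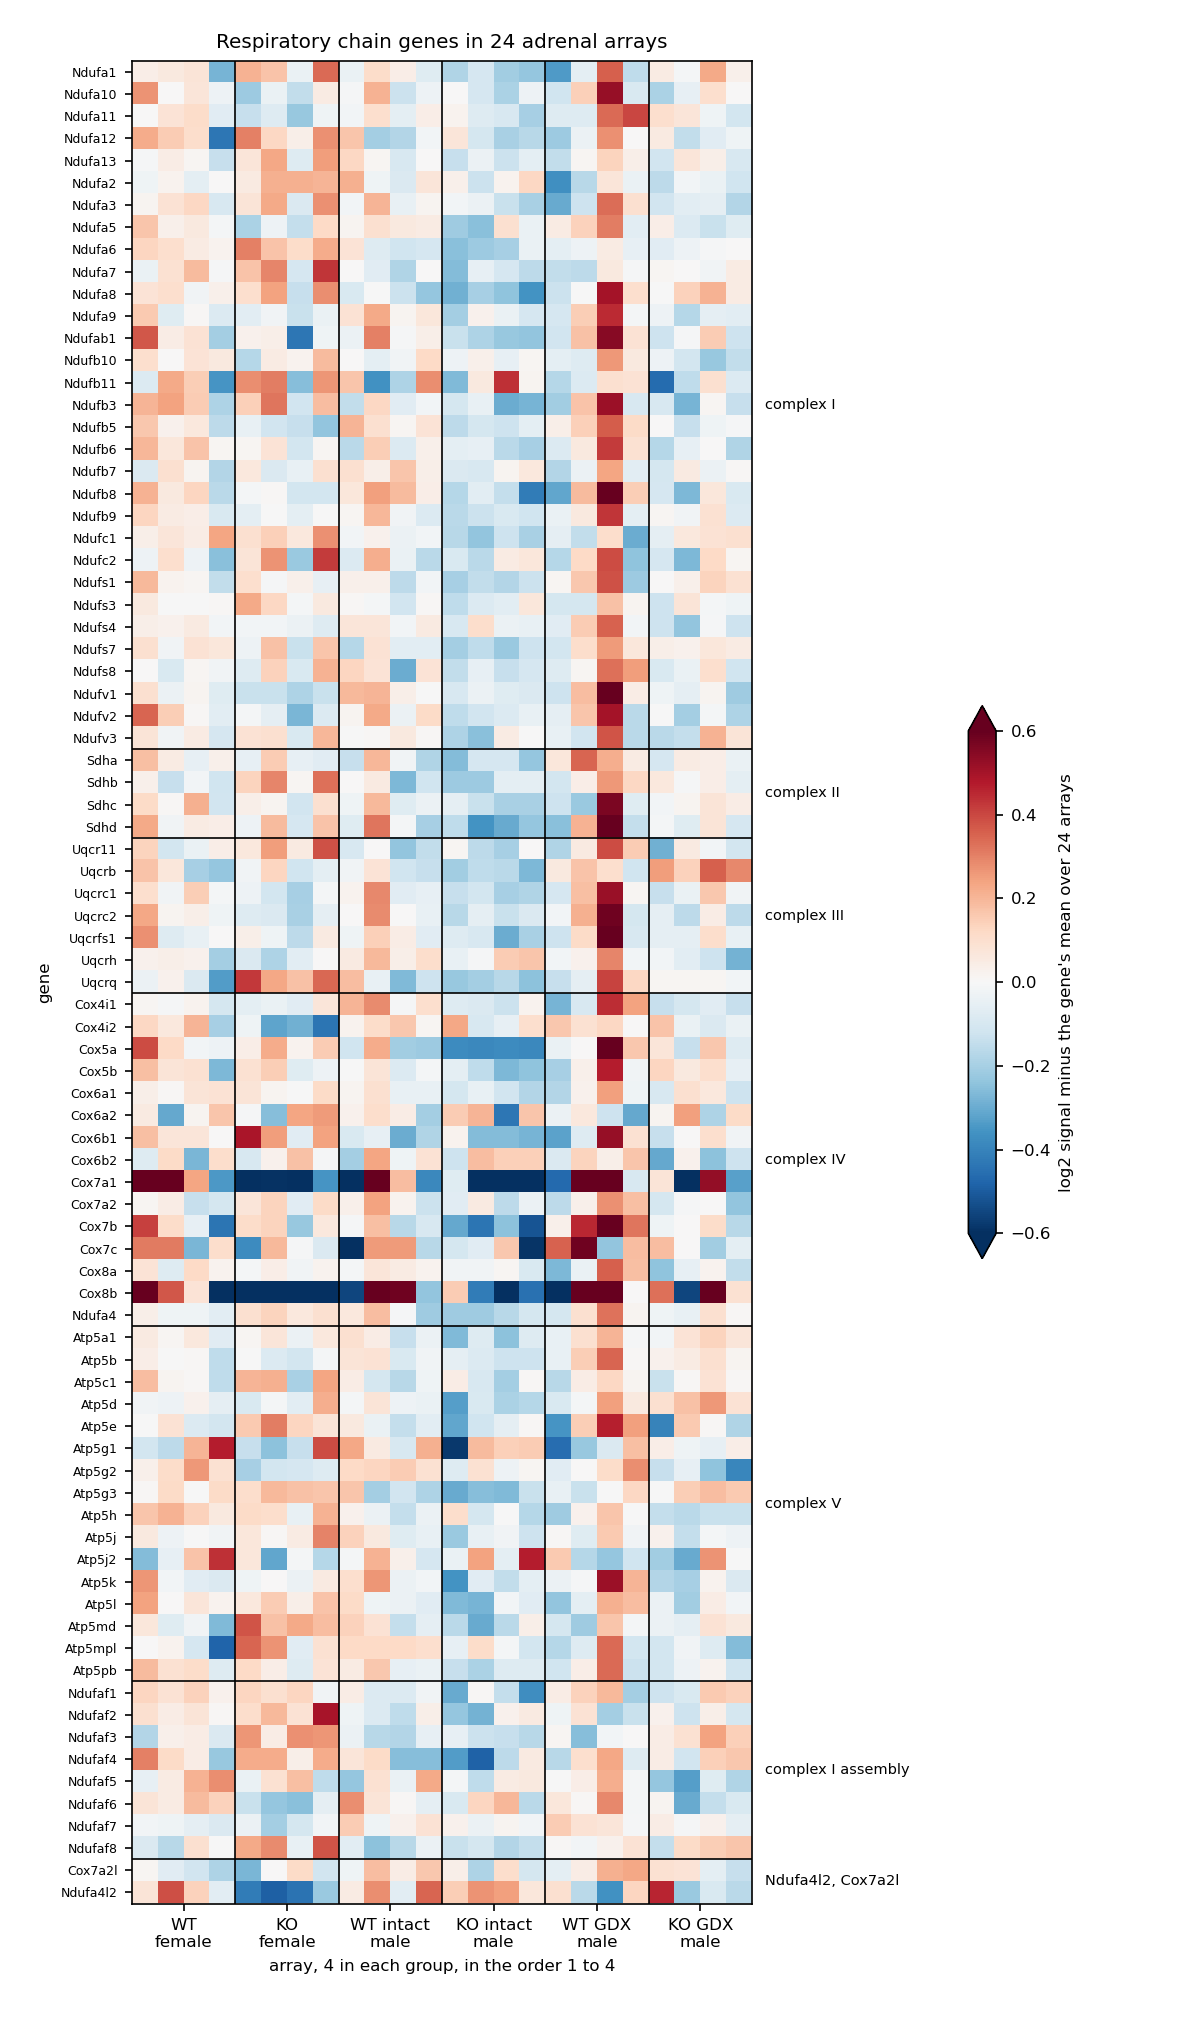
Colour gives the log2 signal of each of the 83 members minus that gene's mean over the 24 arrays, with arrays in columns by group and genes in rows by complex, and colours saturate at 0.6 in either direction. Cox8b and Cox7a1 saturate in both directions, KO intact males are pale blue in most rows, and the third WT GDX array is red in most rows.

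In KO females most of the respiratory chain stayed near its WT level. The median change of the members was 0.00 (all genes -0.02), and 84.3% of the members changed by less than 0.2 against 58% of all genes, with a median SE of 0.09 for the members and 0.10 for all genes. Of the 83 members 6 were called higher and 5 lower, 13.3% against 32.6% of all genes, of which 13.9% were called higher and 18.7% lower. None of the 31 complex I subunits was called: their changes ran from -0.21 to 0.20 with a median of 0.03. The medians of the other complexes were -0.03 for II, -0.05 for III, 0.00 for IV and 0.02 for V. The median over all members was -0.09 with the mean of chromaffin cell markers as a covariate and 0.12 with that of adipocyte markers. With each array centred on its median, 10 members were called higher and 3 lower. The count of 11 was 7 without WT female array 3 and 6 without KO female array 2 or KO female array 4.

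The catalytic and central subunits showed small differences in females. Ndufs1, the largest iron-sulfur subunit of complex I, changed by 0.00 ± 0.09 (adjusted p = 0.999, 95% interval -0.19 to 0.19). Ndufv1, which binds NADH, read 8.84, 8.71, 8.76 and 8.67 in WT and 8.61, 8.61, 8.56 and 8.61 in KO females. Its groups did not overlap, and its change of -0.15 ± 0.10 was not called (adjusted p = 0.288). Sdha, the flavoprotein of complex II, gave -0.06 ± 0.08 and Uqcrc1, a core protein of complex III, -0.14 ± 0.10, neither called. The Rieske iron-sulfur protein Uqcrfs1 gave -0.06 ± 0.12. Cox4i1, the general subunit IV, gave 0.00 ± 0.10 with a 95% interval of -0.22 to 0.21. Cox5a and Cox5b gave -0.01 ± 0.14 and 0.02 ± 0.11. The ATP synthase subunits Atp5a1 and Atp5b, which form its catalytic head, gave 0.01 ± 0.06 and -0.02 ± 0.07. For these head subunits the 95% intervals reached no further than -0.17 and 0.15.

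The called rises in females were small accessory subunits, assembly factors and Sdhb. Uqcrq, a ubiquinone-binding accessory subunit of complex III, read 6.34, 6.40, 6.29 and 6.04 in WT and 6.80, 6.61, 6.55 and 6.72 in KO females. All KO arrays were above all WT arrays, and the rise was 0.40 ± 0.10 (limma adjusted p = 0.00453). Atp5md, a small membrane subunit of ATP synthase, read 10.66, 10.52, 10.57 and 10.33 in WT and 10.97, 10.77, 10.82 and 10.78 in KO. Here too the groups did not overlap (0.31 ± 0.09, limma adjusted p = 0.00973). Atp5mpl, another small membrane subunit of the synthase, rose by 0.30 ± 0.11 (limma adjusted p = 0.0465), with KO array 3 at 8.09 inside the WT range of 7.68 to 8.18. That call was lost in 18 of the 35 alternative settings. Sdhb, the iron-sulfur subunit of complex II, whose inherited loss causes tumours of adrenal chromaffin cells in people, read 9.07, 8.90, 9.02 and 8.92 in WT and 9.17, 9.33, 9.05 and 9.37 in KO. It rose by 0.25 ± 0.08 (limma adjusted p = 0.0263), with KO array 3 inside the WT range. The complex I assembly factors Ndufaf3 (0.26 ± 0.07, limma adjusted p = 0.00843) and Ndufaf8 (0.25 ± 0.08, limma adjusted p = 0.0225) also rose, both with overlapping arrays.

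The called falls were 2 complex IV isoforms, the paralog Ndufa4l2, the assembly factor Ndufaf6 and Atp5g2. Ndufa4l2, a hypoxia-inducible relative of the complex IV subunit Ndufa4, read 7.53, 7.84, 7.59 and 7.39 in WT and 7.03, 6.96, 7.01 and 7.23 in KO females. The groups did not overlap, and it fell by 0.53 (SE 0.14, limma adjusted p = 0.0052). Ndufa4 itself gave 0.12 ± 0.08 and was not called (adjusted p = 0.262). Cox4i2, the oxygen-responsive isoform of subunit IV, read 5.67, 5.61, 5.75 and 5.35 in WT and 5.52, 5.23, 5.26 and 5.11 in KO. It fell by 0.32 (SE 0.09, limma adjusted p = 0.0126), close to the floor of the filter and with overlap between the groups. Atp5g2, one of 3 genes for the membrane ring of ATP synthase, fell by 0.24 (SE 0.07, limma adjusted p = 0.0165) with no overlap, and its dimmer second probe set also gave -0.24. Ndufaf6 fell by 0.28 (SE 0.09, limma adjusted p = 0.0207), again with no overlap. The mean of 10 chromaffin markers ran from 9.74 to 10.14 in WT and from 9.07 to 9.63 in KO females. These ranges do not overlap, so a fit with the chromaffin mean cannot tell it apart from genotype. With that mean as a covariate 3 members were called, 2 of them among the 11: Ndufaf3 and Cox8b (-2.24, limma adjusted p = 0.0286). Of those no longer called, Atp5md (0.32), Uqcrq (0.34), Atp5g2 (-0.23) and Ndufaf6 (-0.30) stayed near their size, while Ndufa4l2 gave -0.21 (limma adjusted p = 0.345). Sdhb, Ndufaf8, Cox4i2 and Atp5mpl lost their calls in this fit as well. Over all alternative settings Sdhb ran from 0.16 to 0.32 and Ndufaf8 from 0.16 to 0.34. Cox4i2 ran from -0.40 to -0.17 and Atp5mpl from 0.18 to 0.58. Other cell type markers were called in KO females too: capsule lower in 6 of 7, zona glomerulosa lower in 6 of 6, macrophage higher in 4 of 8 and cortex higher in 4 of 8.

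**Figure D2:**
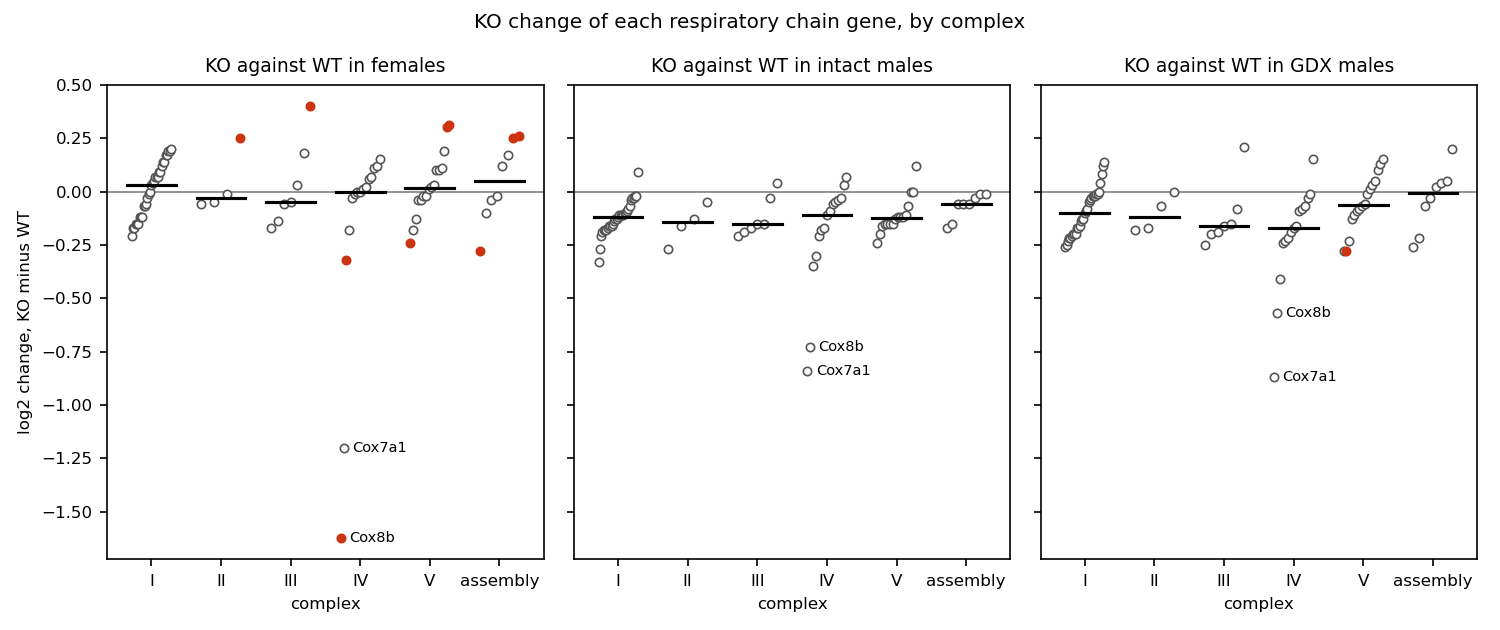
Each point is the log2 change (KO minus WT) of 1 member, by complex, in females, intact males and GDX males; filled points were called, and black lines are medians. In females the medians lie between -0.05 and 0.05, in intact males they lie below 0 in every complex, and Cox8b and Cox7a1 stand below all other members in each panel.

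Cox8b had the largest change of all members. It read 8.31, 7.42, 7.13 and 6.42 in WT females and 5.69, 5.67, 5.79 and 5.63 in KO females. The KO arrays lay close together and below every WT array, and it fell by 1.62 (SE 0.55, limma adjusted p = 0.0273). Cox7a1 read 8.29, 7.46, 7.06 and 6.48 in WT and 6.10, 6.23, 5.69 and 6.47 in KO females. It also showed no overlap, but its change of -1.20 ± 0.52 was not called (adjusted p = 0.0841). The size was the same, and it was called, without WT GDX array 3 (adjusted p = 0.0396) and in a fit of the female groups alone (adjusted p = 0.0247). It was also called without WT female array 4 (-1.48, adjusted p = 0.0496). Of their general counterparts, Cox8a gave -0.03 ± 0.09 (95% interval -0.21 to 0.16) and Cox7a2 gave 0.11 ± 0.09 (-0.07 to 0.30). Of the remaining isoforms, the heart and muscle isoform Cox6a2 gave 0.07 ± 0.14, near the filter's floor. Without WT female array 1 or 2, or KO female array 2 or 4, the call of Cox8b was lost.

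Both restricted isoforms varied widely within the WT groups. In WT intact males Cox8b read 6.50, 8.76, 7.63 and 6.81, and in KO intact males 7.20, 6.63, 6.35 and 6.60. In WT GDX males it read 6.42, 8.34, 9.65 and 7.05, and in KO GDX males 7.38, 6.50, 8.15 and 7.14. The groups overlapped in both male comparisons. The changes were -0.73 ± 0.55 (adjusted p = 0.839) in intact and -0.57 ± 0.55 (adjusted p = 0.619) in GDX males, the latter 0.02 without WT GDX array 3. Cox7a1 gave -0.84 ± 0.52 and -0.87 ± 0.52 there, neither called, and -0.30 in GDX males without that array. The difference between the female and the intact male change of Cox8b, -0.89 ± 0.78, was not called (adjusted p = 0.477).

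The arrays high for Cox8b and Cox7a1 were those high for brown adipocyte markers. Ucp1, the uncoupling protein of brown fat, read 10.14, 8.50, 6.34 and 4.93 in WT females and 4.23, 4.56, 4.81 and 6.78 in KO females. In intact males it read 4.69, 11.40, 8.92 and 4.16 in WT and 9.53, 4.77, 5.17 and 4.90 in KO. In GDX males it read 5.70, 10.86, 12.07 and 7.31 in WT and 8.69, 4.72, 10.29 and 9.30 in KO. Ucp1 passed a log2 signal of 5 on 3 of 4 arrays in WT and 1 of 4 in KO females, on 2 of 4 in each intact male group, and on 4 of 4 and 3 of 4 in WT and KO GDX males. The highest array of a group for Cox7a1 was that for Ucp1 in 6 of 6 groups, and for Cox8b in 5 of 6. The mean of the 8 brown adipocyte markers ran from 5.43 to 7.52 in WT and from 5.18 to 5.92 in KO females. It ran from 4.92 to 8.15 and 5.07 to 6.87 in WT and KO intact males, and from 5.62 to 9.04 and 5.46 to 7.75 in WT and KO GDX males.

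In KO females Cidea, a lipid droplet protein of brown fat, was called lower (-3.11 ± 1.10, limma adjusted p = 0.0345; KO arrays 1 and 3, at 4.80 and 4.58, lay under the filter's floor), and 1 of the 8 markers, Kng2, was called higher. The median change of the 8 was -0.82. General adipocyte markers fell in 6 of 9 cases with a median of -1.71, and their mean ran from 8.77 to 9.68 in WT and from 7.61 to 8.43 in KO females. Ppargc1a, the coactivator of mitochondrial biogenesis that brown fat expresses strongly, was called lower (limma adjusted p = 0.0127). It read 4.66 to 5.71 in WT females, and all KO arrays, at 3.83 to 4.17, lay under the filter's floor, so no size is given. With the level of Ucp1 as a covariate Cox8b gave -0.92 (limma adjusted p = 0.0126) in females. With the mean of the adipocyte markers it gave 0.08 (limma adjusted p = 0.943), and Cox7a1 gave 0.52 (limma adjusted p = 0.491). The adipocyte mean did not overlap between WT and KO females, so this fit cannot tell it apart from genotype. The skeletal muscle markers had no call among 6 tested, and their mean stayed between 5.14 and 5.48 on all 24 arrays. In whole-gland RNA, fewer cells of a type and less RNA per cell cannot be told apart.

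**Figure D3:**
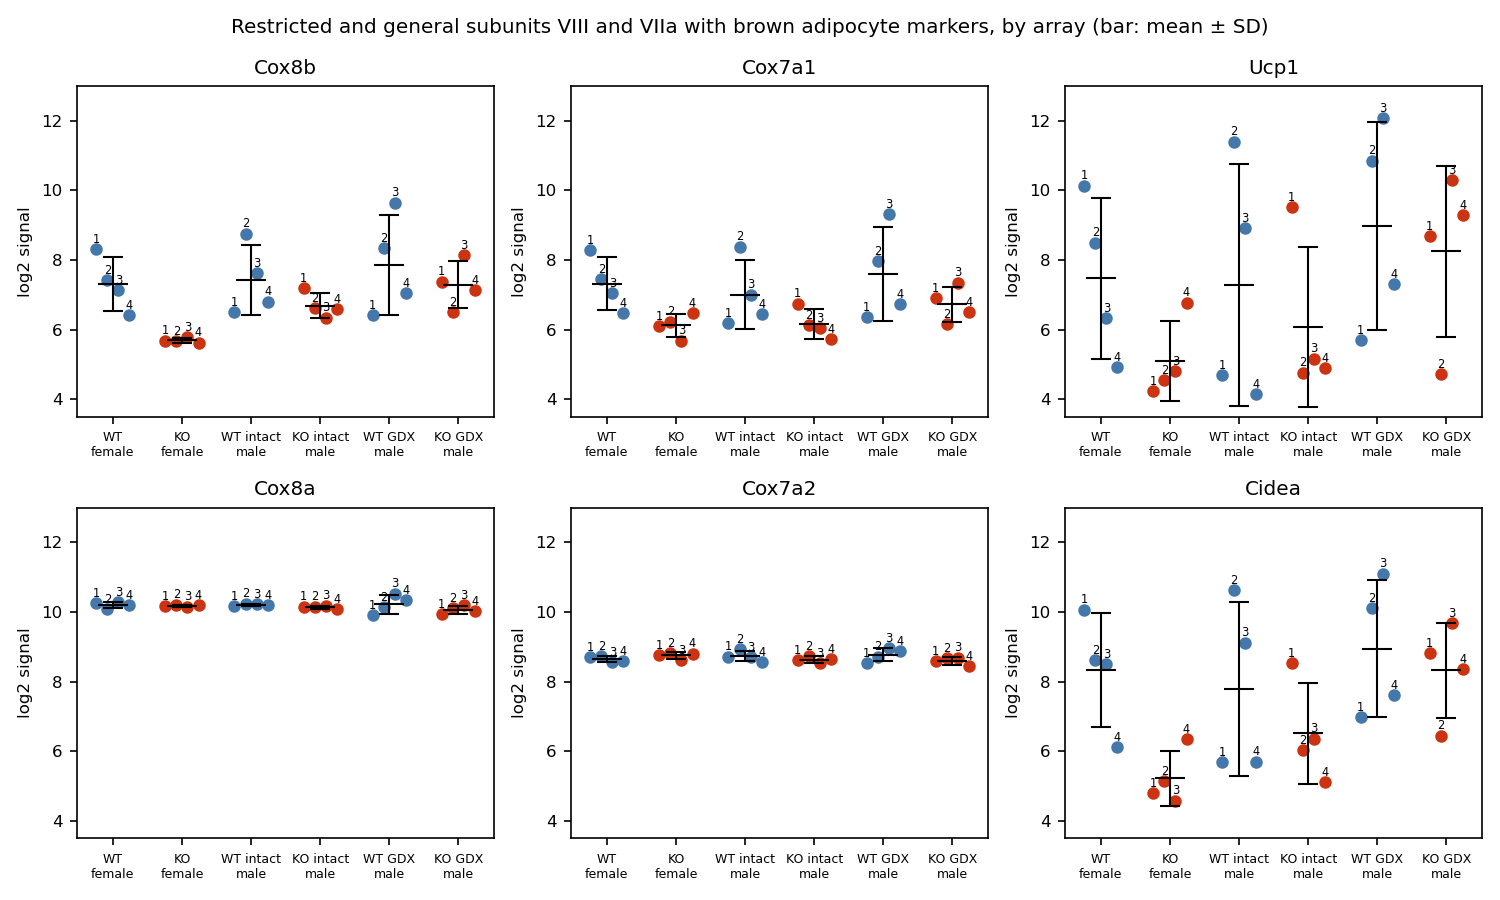
Points are log2 signals on single arrays, numbered 1 to 4 within each group (blue WT, red KO), and bars are mean ± SD (n = 4). Cox8b, Cox7a1, Ucp1 and Cidea spread widely in the WT groups and are high on the same arrays there, while Cox8a and Cox7a2 stay within a band under 1 unit wide.

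The tie to the Ucp1 arrays was not limited to the restricted isoforms. For 16 members (19.3%) the highest array matched that of Ucp1 in at least 5 of the 6 groups. Of all genes tested apart from Ucp1, members included, 1.67% did so. The 16 were counted after the values had been seen. Besides Cox7a1 and Cox8b they include subunits of all complexes: Ndufa10 and Uqcrfs1 in 6 of 6 groups, and Ndufa3, Ndufab1, Ndufb9, Sdhc, Sdhd, Uqcrc2, Uqcr11, Cox5a, Cox6b1, Atp5b, Atp5c1 and Atp5k in 5. In WT GDX array 3, with Ucp1 at 12.07, the mean of complex I stood at 0.33, of II at 0.45, of III at 0.42, of IV at 0.61 and of V at 0.19, each the highest of the 24 arrays. Complex IV without Cox7a1 and Cox8b stood at 0.31 there. The part that brown fat RNA plays in these subunit levels was not tested.

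In intact males the KO arrays were low for nearly all members together, by small amounts. The median change was -0.12 (all genes -0.01), and 75 of the 83 members (90.4%) changed below 0, against 54% of all genes. Other lists leaned the same way. Below 0 were 33 of 39 assembly factors outside the Ndufaf series and 15 of 17 tricarboxylic acid cycle enzymes. So were 55 of 70 mitochondrial and 39 of 50 cytosolic ribosomal proteins. No member was called by limma, where 16 genes in all (0.111%) were called; 11 members (13.3%) and 7.49% of all genes had an unadjusted p under 0.05. Of the members 18 (21.7%) had all KO arrays below all WT arrays and none the reverse, against 2.18% of all genes lower and 2.28% higher without overlap. The 5 complexes shifted alike, with medians of -0.12 for I, -0.15 for II, -0.15 for III, -0.11 for IV and -0.13 for V. The mean over the members was -0.13, -0.11, -0.11 and -0.11 in the KO arrays and 0.01, 0.12, -0.05 and -0.03 in WT. The KO arrays were tightly grouped and below every WT intact male array, and WT GDX array 1 also stood at -0.11. Markers of other cell types moved with this shift, none of them called. None of 10 chromaffin markers (median 0.24) and none of 7 endothelial markers (median 0.27) was below 0, while 7 of 8 brown adipocyte markers were (median -0.44). Also below 0 were 6 of 6 zona glomerulosa markers (median -0.49) and 7 of 9 adipocyte markers (median -0.3). The median of the members was -0.09 with the chromaffin mean as a covariate and -0.11 with Ucp1.

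Cox5a, a matrix-side subunit of complex IV, read 8.68, 9.02, 8.59 and 8.58 in WT and 8.42, 8.41, 8.42 and 8.41 in KO intact males. The KO arrays did not overlap with WT, and the change was -0.30 ± 0.14 (adjusted p = 0.656). Cox7b, an accessory subunit of complex IV, gave -0.35 ± 0.15, also with no overlap. Ndufb8, an accessory subunit of complex I often used as its marker in protein blots, gave -0.33 and Ndufb5 -0.21. Uqcrc1 gave -0.21 ± 0.10, Uqcrfs1 -0.19 ± 0.12 and Ndufv1 -0.18 ± 0.10, each with all KO arrays below all WT arrays and none called. Over the 35 alternative settings, single arrays left out among them, the median change of the members ran from -0.15 to -0.09.

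**Figure D4:**
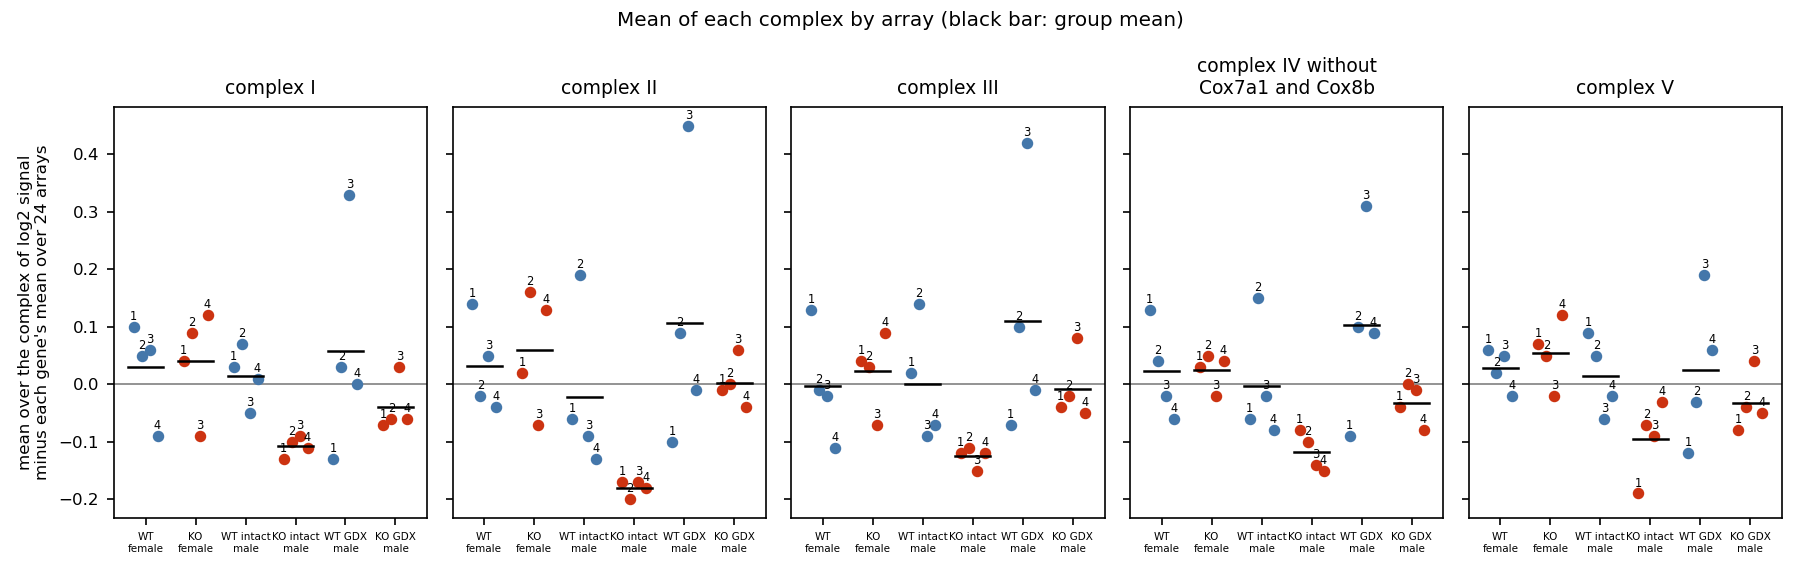
Points are arrays, numbered within groups (blue WT, red KO), and give the mean over the subunits of a complex (complex IV without Cox7a1 and Cox8b) of the log2 signal minus each gene's 24-array mean; black bars are group means. KO intact males lie from -0.20 to -0.03 in all 5 panels, and WT GDX array 3 is the highest point of each panel.

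In gonadectomised males 1 member was called, lower, against 4.23% of all genes called and 1.97% called lower. Atp5g2 read 10.07, 10.14, 10.25 and 10.42 in WT and 10, 10.09, 9.90 and 9.75 in KO GDX males, with KO array 2 inside the WT range. It fell by 0.28 (SE 0.07, limma adjusted p = 0.0362), as its second probe set did (-0.31), but the call was lost without WT GDX array 3 (adjusted p = 0.0912), and likewise without WT GDX array 2 or 4 or KO GDX array 3 or 4. Without WT GDX array 1, 7 members were called lower. The median change over the members was -0.09 and 66 were below 0 (79.5%, against 53.2% of all genes); the median was -0.01 without WT GDX array 3 and -0.16 without WT GDX array 1. The lower median thus rests on 1 array. Between KO and WT GDX males 3 members (3.61%) did not overlap, against 9.62% of all genes. The KO change of no member was called different between GDX and intact males (0.0278% of all genes; 4 members, or 4.82%, and 9.44% of all genes had an unadjusted p under 0.05). The median of that difference over the members was 0.03, and 0.11 without WT GDX array 3.

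No member was called between the sexes in WT mice, whose control genotypes also differ. WT females against WT intact males gave a median of 0.01, with 95.2% of the members changed by less than 0.2 against 75.8% of all genes. By limma 7.75% of all genes were called, and 3 members (3.61%, against 21.9% of all genes) had an unadjusted p under 0.05: Atp5h (0.18), Ndufa6 (0.13) and Atp5mpl (-0.25). Without WT intact male array 1, 1 member was called. Gonadectomy of WT males likewise gave no call, against 4.5% of all genes, with 6 (7.23%, against 17.8%) at an unadjusted p under 0.05 and a median of 0.05. Without WT GDX array 3 that median was -0.02, and without WT GDX array 1, 1 member was called.

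Among KO mice the females were higher than the intact males. Of the 83 members 25 (30.1%) were called higher and 2 (2.41%) lower, where 41% of all genes were called, 17.8% higher and 23.1% lower. The median difference was 0.16 (all genes -0.02), and 28 members had all female arrays above all male arrays (33.7% against 16.5%). Called higher were 7 subunits of complex I, 1 of II, 2 of III, 4 of IV, 6 of V and 5 of the 8 assembly factors. The share called higher was not particular to the members. Mitochondrial ribosomal proteins gave 22 of 70 higher (31.4%) and 1 lower, and glycolysis enzymes 5 of 13 higher (38.5%) and 2 lower. Cytosolic ribosomal proteins gave 0 of 50 higher and 19 lower (38%). This comparison shares the KO intact male arrays with those above and below it, and the KO female arrays with the KO comparison in females.

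Ndufa6, a complex I accessory subunit that holds the mitochondrial acyl carrier protein, read 9.58, 9.45, 9.39 and 9.50 in KO females and 9.03, 9.06, 9.08 and 9.24 in KO intact males. It was higher by 0.38 ± 0.06 (limma adjusted p = 2.76e-05) with no overlap. Atp5g3, a second gene for the membrane ring, read 8.64, 8.73, 8.71 and 8.70 against 8.23, 8.28, 8.27 and 8.40 (0.40 ± 0.07, limma adjusted p = 0.000152). Atp5g2 gave -0.12 here and was not called. Uqcrq was higher by 0.51 ± 0.10, Cox5a by 0.49 ± 0.14, Cox6b1 by 0.42 ± 0.13 and the assembly factor Ndufaf4 by 0.41 ± 0.12, all called. Ndufa8 and Atp5md, each at 0.39, Cox7b at 0.39 and Ndufa1 at 0.35 complete the 10 largest called rises. Sdhb was higher by 0.33 ± 0.08 (limma adjusted p = 0.00348). Called lower were Ndufa4l2, at -0.58 ± 0.14 (limma adjusted p = 0.00177), and Cox4i2, at -0.32 ± 0.09 (limma adjusted p = 0.00917). Cox8b, all of whose KO female arrays were below those of KO males, gave -1.0 ± 0.55 and was not called (adjusted p = 0.155).

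Chromaffin cell markers moved with this comparison. Their mean, over 10 genes, ran from 9.07 to 9.63 in KO females and from 10.20 to 10.50 in KO intact males, and 10 of the 10 were called lower in KO females. WT females ran from 9.74 to 10.14 and WT intact males from 9.82 to 10.31. With that mean as a covariate 1 member, Ndufaf3, was called in place of 27, and calls over all genes went from 5906 to 885. The median of the members went from 0.16 to -0.03. Several members no longer called kept most of their size, Atp5md at 0.41, Uqcrq at 0.38, Ndufa6 at 0.30 (adjusted p = 0.0835) and Atp5g3 at 0.28, while Ndufa8 gave 0.03, Cox7b 0.07 and Cox6b1 0.08. The mean of 8 cortex markers ran from 11.96 to 12.02 in KO females and from 11.69 to 11.79 in KO intact males. Capsule markers were called lower in 6 of 7 cases, zona glomerulosa markers in 6 of 6 and macrophage markers higher in 4 of 8. Endothelial markers were called lower in 6 of 7 (median -0.38) and adipocyte markers in 4 of 9 (median -0.75). The chromaffin mean did not overlap between KO females and KO intact males, so a fit with it cannot tell that mean apart from the groups. The part that these cell types play in the subunit levels was not tested.

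Gonadectomised KO males were also higher than intact KO males for a smaller set. Of the members 8 (9.64%) were called higher and 0 lower, where 15.4% of all genes were called and 6.85% higher; 23 members (27.7%) lay without overlap above the intact males, against 8.85%. Uqcrb, a ubiquinone-binding subunit of complex III, read 11.69, 11.58, 11.80 and 11.73 in KO GDX males and 11.23, 11.29, 11.28 and 11.17 in KO intact males. It was higher by 0.46 ± 0.09 (limma adjusted p = 0.00123), the largest of these and called in all 35 alternative settings. Atp5g3 (0.36 ± 0.07) and Atp5d, the delta subunit of the ATP synthase stalk (0.35 ± 0.07), were also called in all of them. Ndufa8 (0.37 ± 0.10), Ndufaf3 (0.25 ± 0.07), Atp5a1 (0.24 ± 0.06), Ndufc1 (0.23 ± 0.07) and Ndufs7 (0.22 ± 0.07) complete the list. Without KO GDX array 3 the count was 3, without KO GDX array 4 or KO intact male array 3 it was 5. Chromaffin markers ran from 9.90 to 10.31 in KO GDX males, and 3 of 10 were called lower than in KO intact males. Endothelial markers were called lower in 4 of 7 (median -0.39), zona glomerulosa markers in 2 of 6 and capsule markers in 2 of 7. Adipocyte markers were called higher in 2 of 9 and cortex markers in 2 of 8.

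**Figure D5:**
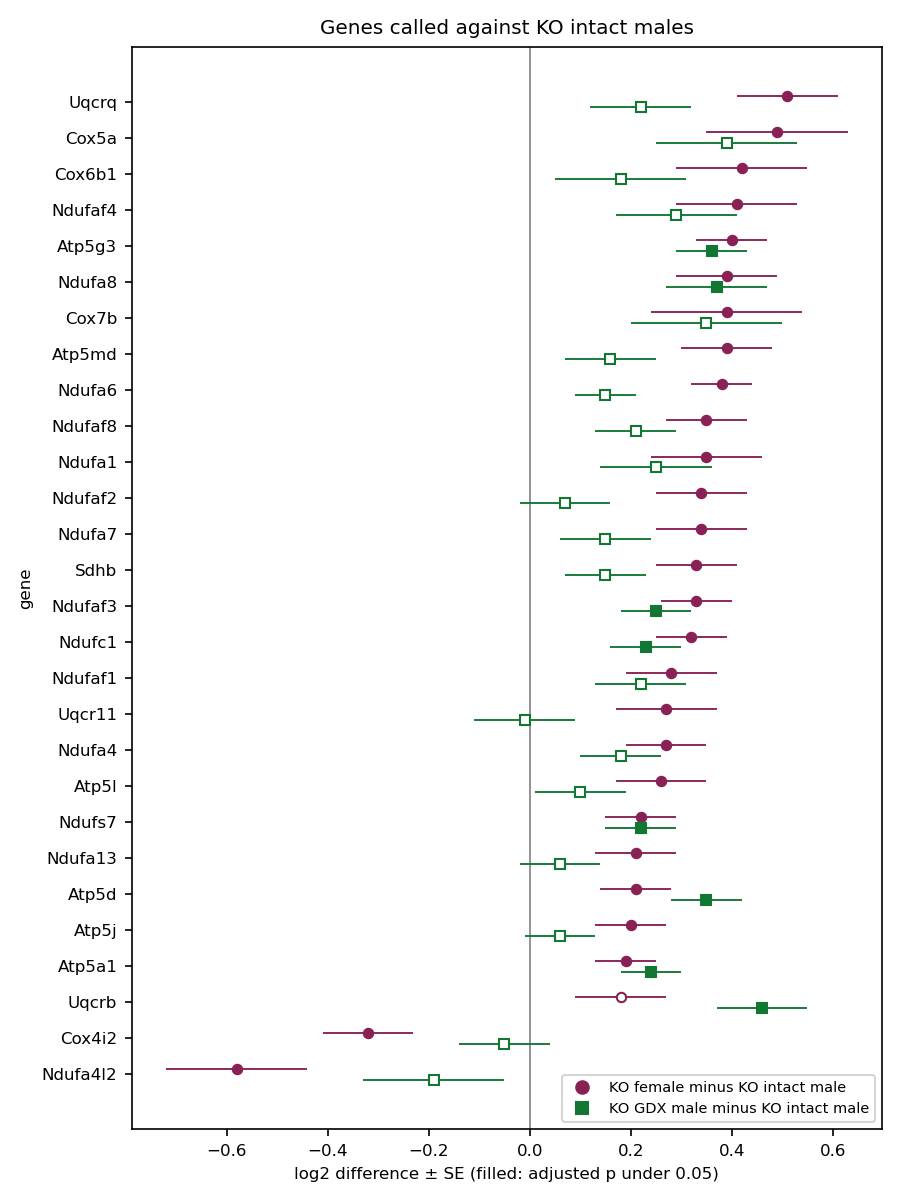
Log2 difference ± SE for the 28 members called in either comparison with KO intact males; circles give KO females and squares KO GDX males, filled where called. Both comparisons share the KO intact male arrays; Uqcrq has the largest rise in females and Uqcrb in GDX males, and only Ndufa4l2 and Cox4i2 were called lower, in females.

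The KO change itself was called different between females and intact males for 3 members, all more positive in females, against 16% of all genes (7.19% more positive). They were Uqcrq (0.55 ± 0.15, limma adjusted p = 0.0138), Atp5md (0.46 ± 0.13, limma adjusted p = 0.0156) and Ndufa6 (0.24 ± 0.08, limma adjusted p = 0.0471). Uqcrq rose in KO females, while in intact males WT read 6.56, 6.33, 6.11 and 6.25 and KO read 6.15, 6.17, 6.21 and 6.13. The count was 8 without KO female array 3, 7 without WT GDX array 3 and 5 without WT intact male array 4. The call of Ndufa6 was lost in 24 of the 35 alternative settings. Ndufa4l2, more negative in females by -0.56 ± 0.19, came close (adjusted p = 0.0521).

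Genes that build or feed the chain gave the following counts, beside 13.9% of all genes called higher and 18.7% lower in KO females. Of 39 assembly factors outside the Ndufaf series 8 (20.5%) were called higher and 2 (5.13%) lower, with a median of 0.06. Cmc2, a factor of complex IV biogenesis, rose by 0.50 ± 0.08, Cox18, which inserts Cox2 into the membrane, by 0.45 ± 0.15 and Cox15, a heme A synthase, by 0.39 ± 0.13. Nubpl, the iron-sulfur carrier for complex I, fell by 0.47 (SE 0.11, limma adjusted p = 0.00275). In KO females against KO intact males 15 of the 39 (38.5%, against 17.8% of all genes) were called higher and 0 lower, led by Cox18 (1.17 ± 0.15) and Cox20 (0.70 ± 0.10). Cox18 was also higher in WT females (mean 8.52) and WT GDX males (8.53) than in WT intact males (7.86). Of 15 genes of ubiquinone synthesis and cytochrome c 3 (20%) were called higher and 1 (6.67%) lower in KO females. Coq3 rose by 0.52 ± 0.10, Coq2 by 0.43 ± 0.13 and the cytochrome c heme lyase Hccs by 0.37 ± 0.09, and Coq10a fell by 0.34 (SE 0.10).

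Of 17 tricarboxylic acid cycle enzymes 1 (5.88%) was called in KO females. Idh2, which makes NADPH in the matrix, read 9.12, 9.18, 9.22 and 9.28 in WT and 8.17, 8.23, 8.23 and 7.75 in KO females. It fell by 1.11 (SE 0.10, limma adjusted p = 1.03e-07), with a median of -0.19 over the list. Nnt, another matrix source of NADPH, gave -0.25 ± 0.21 and was not called (adjusted p = 0.397). Glycolysis enzymes split, with 3 of 13 called higher, 23.1% (Aldoc by 1.01 ± 0.12, Pgam1 by 0.93 ± 0.13, Pkm by 0.42 ± 0.08) and 3 lower, also 23.1% (Ldhb by -0.79 ± 0.15, Ldha by -0.63 ± 0.20, Hk1 by -0.28 ± 0.07). Of 9 genes of mitochondrial steroid hydroxylation 3 (33.3%) were called higher, led by the electron carrier Fdx1 (1.25 ± 0.11), and 1 lower. Of 15 regulators of mitochondrial biogenesis Nfe2l2 was called higher (0.25 ± 0.06), and Ppargc1a and Tfb1m (-0.26 ± 0.08) lower. Of 8 uncoupling proteins and nucleotide carriers 2 (25%) were called lower. Among these Ucp3 read 4.90 to 6.36 in WT and 4.59 to 4.80 in KO females, all KO arrays under the filter's floor, so no size is given. Mitochondrial ribosomal proteins gave 8 of 70 higher (11.4%) and 3 lower (4.29%) with a median of 0.02, and cytosolic ribosomal proteins 0 of 50 higher and 16 lower (32%) with a median of -0.13.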

How the data were processed

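The deposited values are log2 signals per probe set of a mouse gene array, 24 arrays of whole adrenal RNA in 6 groups of 4. The authors processed them by RMA, per the submitters' processing notes; software, version and genome build: not given in the sources used here. Per the labels, 500 ng of RNA entered biotinylated cDNA synthesis. RMA pulls low signals together and so understates changes of dim genes such as Cox4i2. Gene names came from the platform annotation. Of 32202 probe sets 22943 carried 1 symbol, and 9 probe sets that pair a matching symbol with another were left out, so their genes were measured here only where another probe set names them. The 13 subunits encoded in mitochondrial DNA matched no entry and were not analysed here.

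Each gene was represented by its probe set of highest mean, and 14411 genes over 5 in at least 4 arrays were fitted in limma 3.58.1 (R 4.3.3) as 6 group means (lmFit and eBayes, 18 residual and 3.41 prior degrees of freedom). All contrasts come from that fit, and adjusted p-values are Benjamini-Hochberg over all genes. The members, gene lists and tests were chosen with earlier results of these data known. Named are up to 10 called rises and falls per comparison, a fixed set of core subunits and isoforms, the widest ranges of group means and up to 4 called genes per list; a few others were named after their values were seen. Deviations of same-numbered arrays correlated over 0.1 in 4 of 4 pairs between WT and KO GDX males (r 0.12 to 0.24), and in 3 of 4 between WT GDX and WT intact males (r 0.09 to 0.24). In the former the numbers were taken to pair arrays, and the fit with a replicate block left the count at 1. The fit was tested on simulated data with noise drawn independently for each gene and array. Such data hold no shift shared by many genes of an array, as on WT GDX array 3, so the test does not cover it. Precision is limited by the number of arrays. Array medians were 5.20 to 5.29, with 17165 to 17779 probe sets of an array over 5. Motif letters were searched on both strands of the RefSeq windows.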

Additional observations from a re-analysis of the deposited data

Results flagged for a closer look

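In 270 sets of 4 arrays (the named members and the means of complexes I to V in each group) 13 held an array far from the other 3, where chance gives about 14. In KO females these were Ndufaf3 on array 2 (8.10, next 8.32), Ndufaf4 on array 3 (7.88, next 8.07), Ndufv1 on array 3 (8.56, next 8.61) and Sdha on array 2 (11.08, next 10.88). In WT females Ndufa1 stood apart on array 4 (8.17, next 8.49), and in WT intact males Atp5mpl on array 4 (8.26, next 8.28). In KO intact males they were Cox6b1 on array 1 (8.74, next 8.46), Cox6a2 on array 3 (4.72, next 5.31) and Cox6b2 on array 1 (5.05, next 5.32). In GDX males they were Ndufaf3 on WT array 2 (7.80, next 8.04), Ndufaf8 on KO array 1 (6.74, next 7.00), Uqcrfs1 on KO array 3 (7.11, next 6.96) and the mean of complex I on KO array 3 (0.03, next -0.06). KO intact male array 1, high for Cox6b1, was also that group's highest for Ucp1 (9.53).

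The KO change differed between females and intact males, by the interaction term in limma, for Uqcrq (0.55, adjusted p = 0.0138), Atp5md (0.46, adjusted p = 0.0156) and Ndufa6 (0.24, adjusted p = 0.0471).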

How the results depend on the processing

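Counts of members called moved by over 1.5 times as follows, the cause not tested. With the chromaffin marker mean as a covariate they were 3 for KO against WT in females (1 higher, 2 lower), 1 for females against intact males in KO, 4 for GDX against intact males in KO, 0 for the difference between the KO changes of females and intact males, and 8 for any group difference. With the adipocyte marker mean they were 5 for KO against WT in females, 1 for females against intact males in WT and 7 for that difference. With arrays centred on the median they were 41 for females against intact males in KO, 7 for that difference and 0 for KO against WT in GDX males, where no filter and a fit of the groups alone also gave 0. A fit of the groups alone gave 5 for that difference, from fewer arrays. For GDX against intact males in KO, quantile normalization again gave 8 higher and 1 lower, the replicate block 7 and 1, and the adipocyte covariate 5 and 1. With the Ucp1 covariate, added after seeing the data, 14 members were called in KO females. Leaving out each array in turn gave 6 to 12 in KO females, 0 to 7 in KO GDX males, 0 to 1 for sex and for gonadectomy in WT, 18 to 32 for sex and 3 to 10 for gonadectomy in KO, 2 to 8 for the difference and 17 to 39 for any group difference. Counts in KO intact males and for the difference between GDX and intact KO changes stayed at 0 in all settings. Reversed under a marker covariate were Cox8b in KO females (0.08, adipocyte) and, for females against intact males in KO (chromaffin), Ndufa13 (-0.02), Ndufa4l2 (0.00) and Uqcr11 (-0.17). The replicate block gave 11 in KO females, 1 in KO GDX males, 27 and 8 for sex and gonadectomy in KO, 2 for the difference and 22 for any group difference. Not every pair passed 0.1 in the other comparisons, whose arrays were taken to share only a number (r 0.09 to 0.24 between WT GDX and WT intact males, -0.24 to 0.16 in the rest).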
